A study of Mus musculus with 8 samples.

Results

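The translation initiation factor genes were followed in primary mouse aortic smooth muscle cells transfected with a mimetic of moR-21, a microRNA-offset RNA. They were taken by name, as all array probes whose symbol begins with Eif and a digit from 1 to 6, leaving out the older Eif2c names of the Argonaute genes. This gave 70 of the 25697 probes on the Illumina mouse expression array, with 50 array symbols that matched 47 genes. Of these, 54 probes with 40 symbols were detected on at least 1 array and tested.

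The cells were grown out of pieces of several mouse aortas and kept before use in low-glucose medium with charcoal-treated serum. Strain, sex and age are not stated in the labels. The control group was 3 samples given a scrambled oligonucleotide and the moR-21 group was 3 samples given the moR-21 mimetic, both with the lipid reagent RNAiMAX at a final 5 nM, with RNA taken at 48 h. Arrays numbered 8 for these 6 samples, because the RNA of control 1 and of moR-21 sample 3 was read on a pair of arrays, A and B. The labels do not say that the samples of a group came from separate cultures or animals, so the p-values measure only the spread between these samples, which may be technical.

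A microRNA-offset RNA is cut from the primary microRNA transcript directly beside the microRNA. Protein synthesis starts when eIF2, loaded with GTP and the initiator methionyl tRNA, joins the small ribosomal subunit together with eIF1, eIF1A, eIF3 and eIF5. The eIF4 factors bind the cap of the mRNA, unwind its leader and bring it to this complex. The step is regulated mainly by kinases that phosphorylate the alpha subunit of eIF2 and so block its recycling by eIF2B, and by the 4E-BP proteins, which hold the cap-binding factor eIF4E and are released from it through mTOR. Cultured smooth muscle cells need protein synthesis for growth, and the double-stranded RNA sensor among the eIF2 kinases is also an interferon-induced gene.

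The precursor bases next to miR-21 show where the treatment RNA lies, and are printed in RNA letters, 5′ to 3′, from the RefSeq hairpin of mouse assembly GRCm38.p6 (minus strand). The offset stretch is at chr11:86584142-86584158 and miR-21a-5p at chr11:86584120-86584141. The sponge sites that the study built against moR-21 also pair with 1 base before this stretch, which the hairpin entry used here does not hold. Capitals mark, in the offset stretch, the bases shared by the seed windows that the study considered, and in miR-21a-5p the seed, bases 2 to 8.
hairpin bases before miR-21a-5p: uGUACCaccuugucgga
miR-21a-5p: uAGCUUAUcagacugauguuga

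Across the arrays the median intensity was 102.5 to 109.2, and 10285 to 10512 probes had a detection p-value, the share of negative control beads at least as bright, under 0.01. After quantile normalization, limma compared the groups over 11651 probes, and calls needed both a change of more than 1.3-fold (0.38 on the log2 scale) and a p below 0.002 after Benjamini-Hochberg adjustment. Of the 7 smooth muscle markers 5 were detected on at least 1 array, without Myh11 and Cnn1. Tagln was detected on 0 of 4 control and 4 of 4 moR-21 arrays, and Lmod1 on 1 control and 2 moR-21 arrays. By the same rule 1 of 6 endothelial markers was detected (Vwf, on 4 control and 4 moR-21 arrays). Of 5 macrophage markers 1 was (Csf1r, on 3 control and 3 moR-21 arrays). A single description field of the labels reads AoECs where the others read AoSMCs. Markers of several cell types moved with the treatment. Summed over the detected markers of each list, the linear signal per sample was 9950 to 10300 in the control group and 12700 to 13600 in the moR-21 group for smooth muscle. That sum was mostly Acta2, and the other 4 smooth muscle markers summed to 762 to 830 and 752 to 800, with Des at -0.38 (limma adjusted p = 8.60e-05, not called), Smtn at -0.05 and Tagln at 0.20 on the log2 scale. For the 3 detected of 4 fibroblast markers it was 6210 to 6660 and 5010 to 5220, and for the 2 detected of 4 mesothelial markers 771 to 780 and 402 to 416. Acta2 was called higher by 0.40 on the log2 scale, and Lum and Upk3b were called lower, at -0.56 and -1.24, while Dpt, Msln and Lrrn4 were not detected. The part of these cell types in the results that follow was not tested, and in bulk RNA fewer cells of a type and less RNA per cell cannot be told apart.

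Among the initiation factors, 3 of the 54 tested probes were called (5.56%), against 6.96% of all tested probes. PKR (Eif2ak2) and Eif2a fell and Eif2s3x rose. The background was 3.85% for lower and 3.12% for higher calls, so that the share called among the initiation factors was near that of the array. At an adjusted p under 0.05 and any fold change, limma gave 24 of 54 (44.4%), 14 lower and 10 higher, against 33.8% of all tested probes (1860 lower and 2083 higher). An unadjusted p under 0.05 was reached by 42.2% of all tested probes, the share beside which the probe counts of each group below at that cutoff stand. The samples of the groups did not overlap for 28 probes (51.9%), against 45.0% of all tested probes. Most differences were small. The median log2 difference, moR-21 minus control, was -0.03 beside 0.00 over all tested probes, 33 of the 54 were below 0 beside 48.3% of all tested probes, and the median size without regard to sign was 0.13 beside 0.09.

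**Figure D1:**
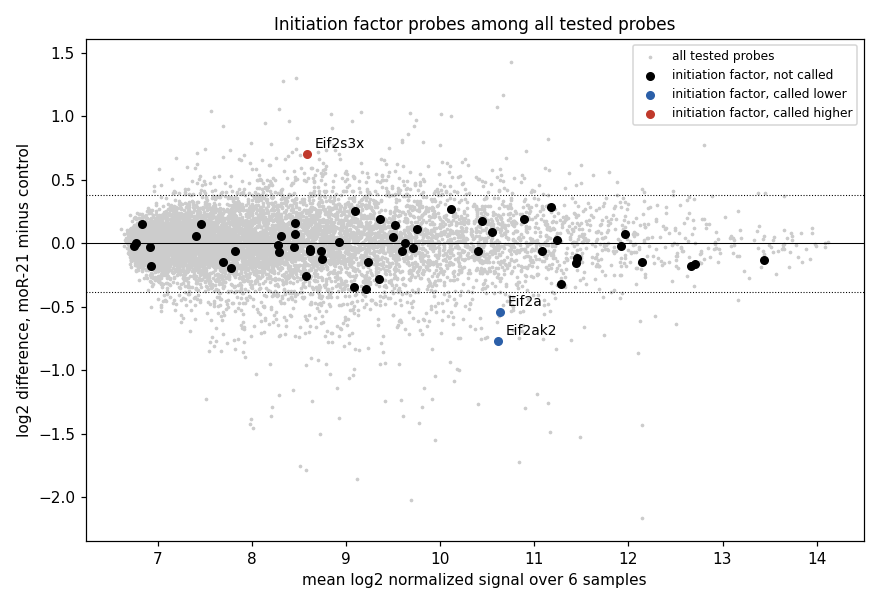
Each point is a tested probe, with its mean log2 normalized signal over the 6 samples on the x axis and its log2 difference, moR-21 minus control, on the y axis. Initiation factor probes are marked over all 11651 tested probes, and the 3 that were called lie beyond the 0.38 line, Eif2ak2 and Eif2a below and Eif2s3x above.

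Eif2ak2 encodes PKR, the eIF2 kinase that double-stranded RNA switches on, and lies in GRCm38.p6 on chromosome 17 from 78850504 to 78882572. Its log2 signal was 11.04, 11.01 and 10.93 in the control samples and 10.26, 10.16 and 10.27 in the moR-21 samples. The groups did not overlap, and the means were 10.99 ± 0.058 and 10.23 ± 0.063 (SD, n = 3 each). It fell by 0.77 on the log2 scale, a fold change of 1.70 (SE 0.051, limma adjusted p = 7.41e-08). The repeated arrays were far closer to each other than the groups were, at 11.02 and 11.06 for control sample 1 and at 10.21 and 10.32 for moR-21 sample 3. It was the largest difference in either direction among the 54 probes, and it was called under all 19 alternative settings, at -0.81 to -0.73. Of the other eIF2 kinases, HRI (Eif2ak1), which senses haem, was at -0.06 with a 95% confidence interval of -0.19 to 0.07, and GCN2 (Eif2ak4), which senses uncharged tRNA, was not detected. Eif2ak3, the kinase of the endoplasmic reticulum stress response, was not analysed here.

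Eif2s3x encodes the gamma subunit of eIF2, the one that binds GTP and the initiator tRNA, and lies on chromosome X from 94188709 to 94212651. Its log2 signal was 8.32, 8.13 and 8.24 in the control samples and 8.93, 8.94 and 8.94 in the moR-21 samples. Every moR-21 sample lay above every control sample, with means of 8.23 ± 0.094 and 8.93 ± 0.0051 (SD, n = 3 each). It rose by 0.70 on the log2 scale, a fold change of 1.63 (SE 0.052, limma adjusted p = 2.23e-07). It was called under all 19 alternative settings, at 0.65 to 0.90, the highest with normexp background correction. Its partner the beta subunit (Eif2s2) did not follow it, with its probes at 0.06 and -0.04. The confidence interval of the former was -0.04 to 0.15 and that of the latter -0.16 to 0.09, both below the fold change cutoff. The alpha subunit (Eif2s1), the substrate of the kinases, and the Y-linked gamma copy Eif2s3y were not detected on any array.

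Eif2a is a separate gene from the alpha subunit. It encodes eIF2A, a single-chain factor that can place initiator tRNA without GTP, and lies on chromosome 3 from 58525821 to 58557501. Its log2 signal was 10.92, 10.89 and 10.92 in the control samples and 10.42, 10.31 and 10.36 in the moR-21 samples, again without overlap. The means were 10.91 ± 0.019 and 10.36 ± 0.054 (SD, n = 3 each). It fell by 0.54 on the log2 scale, a fold change of 1.46 (SE 0.047, limma adjusted p = 9.33e-07). It was called under 18 of the 19 alternative settings, and lost its call at the stricter cutoff of a 1.5-fold change.

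**Figure D2:**
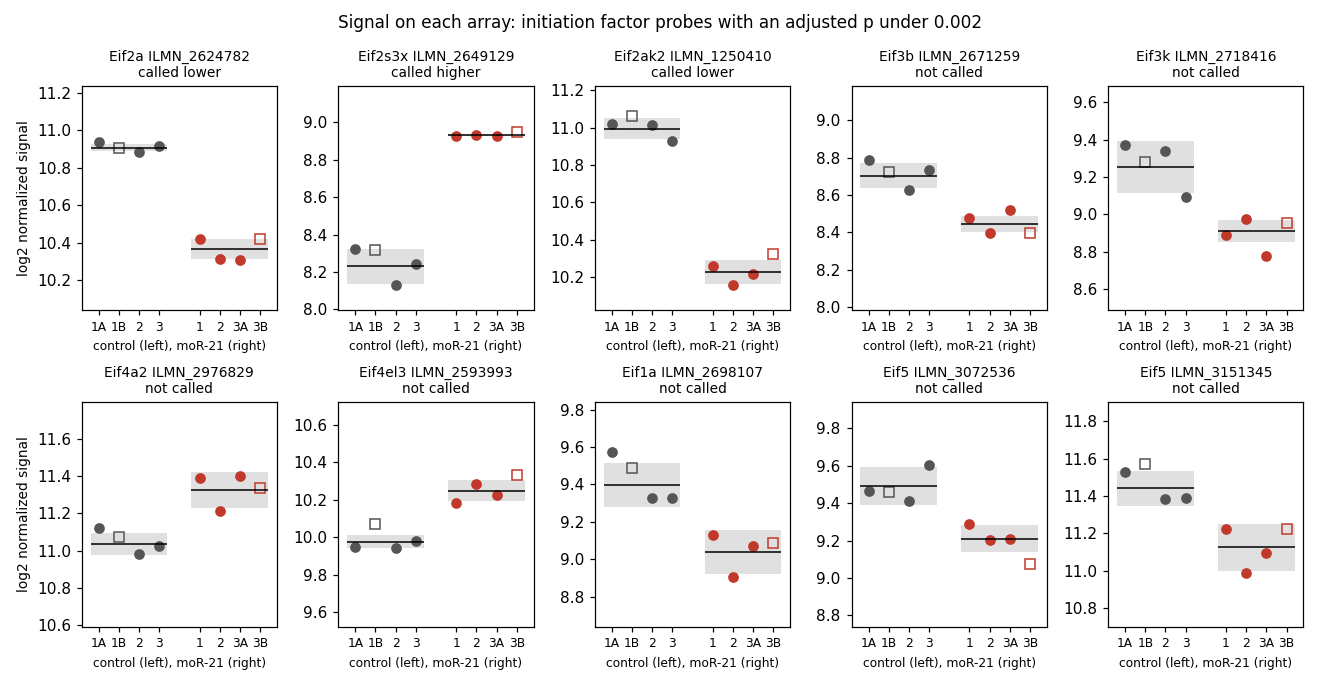
Log2 normalized signal on each array (y axis) for the initiation factor probes with an adjusted p under 0.002, control arrays on the left of each panel and moR-21 arrays on the right, with repeated arrays of a sample shown apart. The groups stand apart in Eif2ak2, Eif2a and Eif2s3x, which were called, and lie closer in the others, which were below the fold change cutoff.

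The promoters of the initiation factors were searched because PKR is an interferon-induced gene. The motif, GAAA followed by any 2 bases and GAAA again, is the core of the interferon response element and was sought on both strands in RefSeq windows of 300 bases, 250 before and 50 after the start of each transcript. It was found in 1131 of 32851 windows of all genes (3.44%) and in 3 of 42 windows of 31 tested initiation factor genes (7.14%). Tested genes without a full window were not searched. The 3 include Eif2ak2, which prompted the search, so the 2 shares are no test. Its sites are shown with the bases around them, on the strand of the gene and in GRCm38.p6, with the motif, or its reverse complement where the match is on the other strand, in capitals. The printed window of Eif2ak2, motif and flanks together, is at chr17:78882535-78882564, that of Eif2s3x at chrX:94212636-94212665 and that of Eif3a at chr19:60790885-60790914, all on minus-strand genes.
Eif2ak2: agtccgccggGAAAACGAAAcagaagagaa
Eif2s3x: tgccgagcatTTTCCTTTTCtctccgagca
Eif3a: agaccgcaaaTTTCCCTTTCccactctgtg
With the start site counted as the first base, the Eif2ak2 match starts at base 19. Those of Eif2s3x and Eif3a are on the opposite strand, from -4 to 6 and from -211 to -202. Of these 3 genes Eif2ak2 fell, Eif2s3x rose and Eif3a was not called. An effect of interferon was not tested. A match is a description of letters and does not show that a factor binds there.

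The guanine nucleotide exchange factor eIF2B, which recycles eIF2, was measured by 7 probes of 4 subunits, and limma called 0 of them (3 at an unadjusted p under 0.05). The alpha subunit Eif2b1 was at -0.19 (adjusted p = 0.00411) in the dimmer probe and at -0.04 in the other. The beta subunit Eif2b2 and the delta subunit Eif2b4 were at -0.01 and 0.01. All 3 probes of Eif2b5, the catalytic epsilon subunit, were higher in every moR-21 sample than in any control sample, at 0.07, 0.14 and 0.19, of which the last 2 had adjusted p-values of 0.0334 and 0.0163. Groups without overlap were found for 45.0% of all tested probes. For the probes at 0.07 and 0.14 the separation held only after repeated arrays were averaged. Array B of moR-21 sample 3 was at 8.384, below every control array, in the former. In the latter it was at 9.519, below control sample 3 at 9.524.

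The scaffold eIF3, which holds the small subunit and mRNA together, was measured by 19 probes with 14 symbols, of which 16 probes were tested. limma called 0 of them (7 lower and 1 higher at an unadjusted p under 0.05). Below 0 were 13 of 16, beside 48.3% of all tested probes, with a median of -0.12. Median scaling and cyclic loess gave 13 of 16 as well, with medians of -0.10 and -0.12, and leaving out a sample gave 11 to 14. The 8 of 16 at an unadjusted p under 0.05 stand beside 42.2% of all tested probes. At an adjusted p under 0.05, 6 probes were lower, those of Eif3b, Eif3d, Eif3i, Eif3k, Eif3s1 and Eif3s4, and 1 was higher, that of Eif3a. Eif3s4 is the older name of Eif3g, so these probes are not all of separate genes. The probe under the current name Eif3g was at -0.06 (limma adjusted p = 0.380), and its groups overlapped. Eif3s1, the older name of Eif3j1, was at -0.18 in a probe near background, and with normexp background correction it was at -0.56 and was called. Eif3k, a peripheral subunit, was the lowest, with 9.32, 9.34 and 9.09 in the control samples and 8.89, 8.98 and 8.87 in the moR-21 samples. Its difference was -0.34 (SE 0.063, limma adjusted p = 8.04e-04), below the fold change cutoff. Without control sample 3 it was -0.42 and was called. The core subunit Eif3b was at -0.26 (adjusted p = 0.00106) in its bright probe and at -0.02 in a probe detected on 1 control array alone. Eif3a, the largest core subunit, was the highest at 0.26 (adjusted p = 0.00374), with all moR-21 samples above the control samples. Eif3d and Eif3f were at -0.14 and -0.13, and the 3 probes of Eif3i at -0.16, -0.12 and 0.09.

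**Figure D3:**
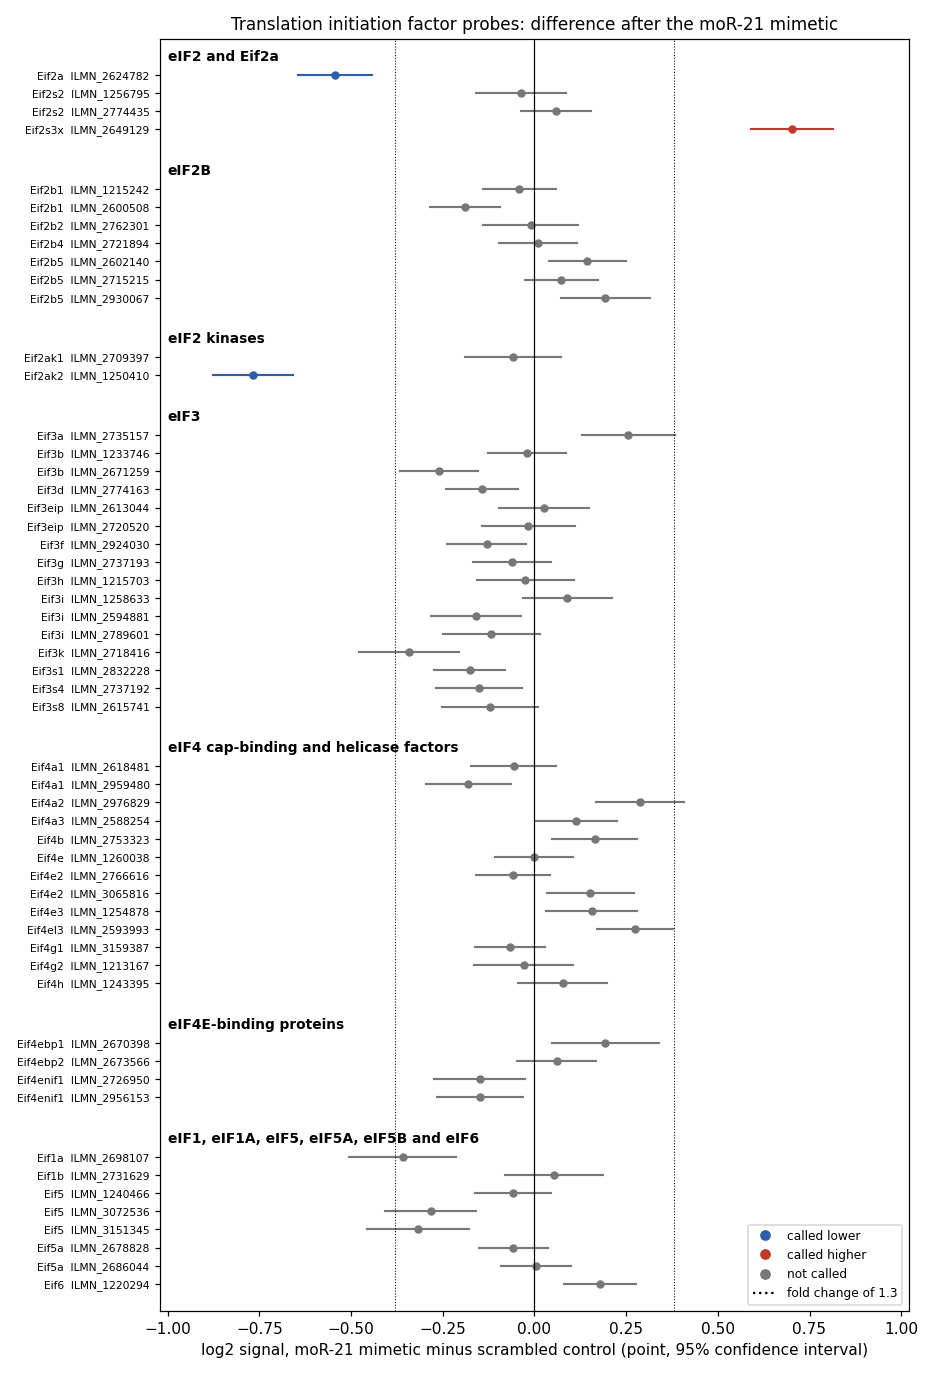
Log2 difference, moR-21 minus control (x axis), for each tested initiation factor probe (y axis, grouped by role), as a point with its 95% confidence interval. Only Eif2ak2, Eif2a and Eif2s3x were called, and most eIF3 probes lie a little below 0.

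The cap-binding and helicase factors of the eIF4 group were spread around 0, with 6 of 13 tested probes below 0, a median of 0.08 and a range of -0.18 to 0.29, and limma called 0 of them (1 lower and 6 higher at an unadjusted p under 0.05). The helicase paralogues lay on opposite sides of 0. Eif4a1 was at -0.18 (adjusted p = 0.0194) in its bright probe and at -0.06 in the other, and Eif4a2 was at 0.29 (adjusted p = 0.00109). The log2 signal of Eif4a2 was 11.10, 10.98 and 11.03 in the control samples and 11.39, 11.22 and 11.37 in the moR-21 samples, without overlap. Eif4a3, the exon junction helicase, was at 0.11, and the helicase cofactors Eif4b and Eif4h at 0.16 (adjusted p = 0.0299) and 0.08. The cap-binding protein Eif4e was detected on 1 control array alone, so its difference of 0.00 says little. Its paralogue eIF4E2, which represses translation, was read by 3 probes, at -0.06 and 0.15 under Eif4e2 and at 0.27 (adjusted p = 5.19e-04) under the older name Eif4el3. The scaffold Eif4g1 was at -0.07 with a confidence interval of -0.16 to 0.03, and its relative Eif4g2 at -0.03. Eif4e3 was at 0.16 in a probe detected on 1 control and 4 moR-21 arrays.

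The eIF4E-binding proteins were not called either, in 4 tested probes (2 lower and 1 higher at an unadjusted p under 0.05 in limma). Eif4ebp1, the mTOR-regulated repressor, was at 0.19 (adjusted p = 0.0406) and its groups overlapped, because control sample 3, at 10.97, lay above 2 of the moR-21 samples. Its repeated arrays of moR-21 sample 3 differed by 0.33, the largest gap between repeated arrays among the 54 probes. Eif4ebp2 was at 0.06 and both probes of Eif4enif1, the eIF4E transporter, were at -0.15. Eif4ebp3 was not detected.

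The remaining group, eIF1, eIF1A, eIF5, eIF5A, eIF5B and eIF6, gave no call in 8 tested probes (3 lower and 1 higher at an unadjusted p under 0.05 in limma). Eif1a, which helps start codon choice, was the lowest of all probes that were not called, with 9.53, 9.33 and 9.33 in the control samples and 9.13, 8.90 and 9.08 in the moR-21 samples. Its difference was -0.36 (SE 0.068, limma adjusted p = 8.98e-04), just under the cutoff of 0.38. It was called under 4 of the 19 alternatives, at -0.40 to -0.38. Eif5, the GTPase activator of eIF2, had 3 probes, at -0.32 (adjusted p = 0.00171), -0.28 (adjusted p = 0.00173) and -0.06 (adjusted p = 0.395). Eif6, which keeps the large subunit free, was at 0.18 (adjusted p = 0.00783), and each moR-21 sample lay above the controls. Eif5a, the hypusine-carrying factor, was near 0 in both probes, at -0.06 and 0.00, and Eif1b at 0.05. Eif5b, which joins the subunits, and Eif5a2 were not detected.

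Of the 12 genes with more than 1 tested probe, 7 had all their probes on one side of 0. The exceptions were Eif2s2, Eif3i, Eif3l (array symbol Eif3eip), Eif4e2 and Eif5a. Repeated arrays of control sample 1 differed by a median of 0.0442 on the log2 scale over the 54 probes and those of moR-21 sample 3 by 0.0652.

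Among partners and regulators of initiation, 4 of 31 tested genes were called, each read at its brightest detected probe, against 7.79% of all 8727 genes read that way. Denr, Pabpc1 and Paip2b fell and Impact rose. The median of the list was -0.06, with 19 of 31 below 0. The log2 signal of Denr, which forms with Mcts1 a recycling and reinitiation factor, was 7.69, 7.73 and 7.67 in the control samples and 6.96, 7.05 and 7.00 in the moR-21 samples. It fell by 0.69 (SE 0.046, limma adjusted p = 7.86e-08) and its dimmer probe was also lower, at -0.40, while with normexp background correction the brighter probe was at -1.46. Its partner Mcts1 was at 0.29 (limma adjusted p = 0.00121), and was not called because it was below the fold change cutoff. Pabpc1, the poly(A)-binding protein that joins the mRNA ends, was 10.21, 10.55 and 10.60 in the control samples and 9.80, 9.64 and 10.02 in the moR-21 samples, the widest spread of the called genes. It fell by 0.63 (SE 0.099, limma adjusted p = 2.12e-04). Its dimmer probes were also lower, at -0.35 (adjusted p = 4.64e-05) and -0.22 (adjusted p = 0.0357), but were below the fold change cutoff and not called. The brightest probe lost its call without control sample 2, at -0.58 (adjusted p = 0.00222). Paip2b, which inhibits poly(A)-binding protein, fell by 0.42 (limma adjusted p = 7.64e-05), and its dimmer probe, at -0.14, was not called. Impact, which inhibits activation of GCN2, rose by 0.41 (limma adjusted p = 2.82e-05), with 9.67, 9.64 and 9.55 in the control samples and 10.09, 9.99 and 10.01 in the moR-21 samples. Both Paip2b and Impact were close to the fold change cutoff. Pdcd4, an inhibitor of the helicase eIF4A, was not called at -0.32 (limma adjusted p = 0.00134), and its probe was detected on all 4 control arrays and on 1 moR-21 array. Paip2b lost its call without control sample 1, at -0.36, and Impact lost its call without control sample 3 or moR-21 sample 1, at 0.37 and 0.38.

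The elongation and termination factors gave 0 calls in 11 tested genes (1 lower and 4 higher at an unadjusted p under 0.05 in limma, which 44.6% of all genes read at their brightest probe passed), with a median of 0.04. The highest were Gspt2, a termination factor GTPase, at 0.32 and Eef1b2, an exchange factor subunit, at 0.29. Their limma adjusted p-values were 4.64e-04 and 0.00198, and both were below the fold change cutoff. The mitochondrial translation factors also gave 0 calls in 8 tested genes (0 lower and 2 higher at an unadjusted p under 0.05 in limma), led by the elongation factors Tsfm at 0.22 and Gfm2 at 0.18.

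**Figure D4:**
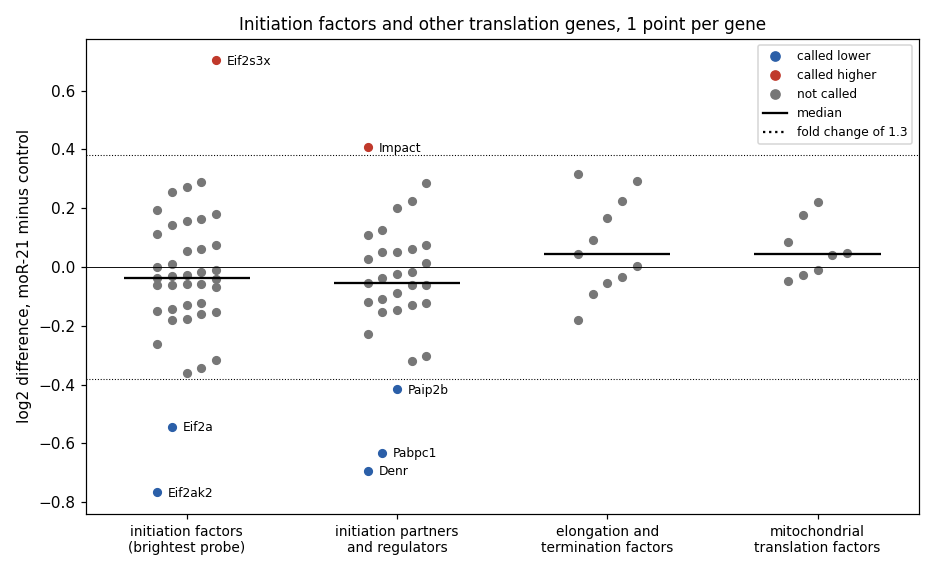
Log2 difference, moR-21 minus control (y axis), at the brightest detected probe, for the initiation factors and the other translation gene lists (x axis). The initiation factors have 1 point per array symbol and the other lists 1 point per gene. Eif4e2 and Eif3g therefore also have a point under their older symbols, Eif4el3 and Eif3s4. The partner and regulator genes hold calls in both directions, Denr at -0.69 and Impact at 0.41 among them, and the elongation and mitochondrial lists hold none.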

How the data were processed

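The authors deposited non-normalized probe intensities together with a detection p-value for every intensity. The paper's methods name Beadstudio, lumi, quantile normalization and limma, and 2 Illumina array designs. Quantile normalization was run over the 8 arrays at once, followed by log2 transformation and averaging of repeated arrays, and limma 3.58.1 (R 4.3.3; lmFit and eBayes) was fitted to the 11651 probes that any array detected (detection p-value below 0.01). p-values were adjusted by Benjamini-Hochberg over all of them, with the paper's cutoffs. 0 value columns were left without a sample. Intensity precision is limited by 3 samples per group, and an exact permutation test of 3 against 3 could not go below 0.1.

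Old symbols were matched to GRCm38.p6 (42 current, 8 through a synonym). Named were the called initiation factors, the detected members of eIF2, eIF2B, the kinases, eIF4 and the 4E-BPs, the extremes and disagreeing probes of the others, and the called genes of each list (at most 6). Others named, such as Eif5, Mcts1, Gspt2 and Tsfm, were chosen after their values were seen. The members and lists were chosen with earlier results of these data known. Proteins are not shown, because no protein sequences were used here.

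The alternatives were normexp correction (offset 16), median scaling, cyclic loess, stricter and no detection filters, array A or B alone, 8 arrays tied by duplicateCorrelation or taken separately, eBayes with trend and robust, the replicate block, each sample left out, cutoffs of 0.05 for the adjusted p and of 1.5 for the fold change. The fit was tested on simulated data. Figures used Python 3.11.15 and matplotlib 3.10.9.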

Additional observations from a re-analysis of the deposited data

How the results depend on the processing

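Eif2ak2 and Eif2s3x kept their call and direction under all 19 alternatives. Eif2a was lost only at a fold change over 1.5 (-0.54). The number of initiation factor probes called was 3 to 5 when samples were left out, with 5 (4 lower, 1 higher) without control sample 3, where Eif1a and Eif3k were added. With normexp correction 2 partner and regulator genes were called, and 2 at a fold change over 1.5, and 3 to 5 when samples were left out. Pabpc1 (-0.68), Paip2b (-0.48) and Impact (0.45) lost their calls with normexp correction, which moved Denr to -1.46, Eif3s1 to -0.56, Eif4e3 to 0.54, Eif4e2 to 0.29 in its dimmer probe and Eif2b1 to -0.31. Calls were also lost by Paip2b (-0.43) with median scaling, and by Pabpc1 (-0.63) without a detection filter. The counts of the elongation and mitochondrial lists stayed at 0 under all 19. The median log2 difference of the initiation factors was -0.057 with normexp correction, -0.041 over probes detected on all 8 arrays and -0.012 without a detection filter, and -0.043 to -0.027 when samples were left out. The SD between samples of the median over tested members was 0.0076, and the median difference was not tested. The cause of the changes between settings was not tested. The sign of 43 of 54 probes held under every alternative, and the other 11 were at most 0.057 from 0.

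With the replicate number as a block, 3 initiation factor probes were called and the median was -0.033. Correlations between samples cannot settle whether the numbers pair them. For same numbers they were 0.187, 0.0441 and 0.0597. For different numbers they ran from -0.129 to 0.0693, the highest between control sample 3 and moR-21 sample 2. With the block, the limma adjusted p of Eif2ak2 was 1.26e-09 and that of Eif1a 1.90e-05, against 7.41e-08 and 8.98e-04 without it. Probes near background, such as Eif4e, and 16 undetected probes allow no statement about change.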
